A study of Mus musculus with 8 samples.

Results

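The genes described here are 10 interferon-induced antiviral effectors, chosen by symbol from the 54146 genes of each library: the Mx GTPases Mx1 and Mx2, viperin (Rsad2) and its neighbour Cmpk2, tetherin (Bst2) and Ifitm3 at cell membranes, and Ifi44, Ifi35, Samd9l and Xaf1. All 10 were listed in every library. The 8 RNA-seq libraries came from cultured primary astrocytes of mouse cortex, with 2 libraries in each of 4 groups. The groups were control KD astrocytes (lentivirus with a non-silencing shRNA) and GSTM1 KD astrocytes (lentivirus with an shRNA against Gstm1, a cytosolic glutathione S-transferase), each unstimulated (basal) or given TNF-α (50 ng/ml, 6 h). All 4 groups shared the C57BL/6 background, the lentiviral infection with puromycin selection and the depletion of CD11b-positive cells, so no group was free of virus, and the labels name 1 shRNA per arm and no rescue. The design asks whether the knockdown changes these genes at the basal level, whether it changes them in stimulated cells, and whether it changes the response to TNF-α.

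Type I interferons bind the IFNAR1 and IFNAR2 receptor, and the kinases JAK1 and TYK2 then pass the signal to transcription factors in the nucleus. These bind the interferon-stimulated response element (ISRE) in promoters of antiviral genes. TNF-α, which signals mainly through NF-κB, can raise the same genes in several cell types by way of IRF1 and small amounts of interferon-β. The proteins act at different steps of infection. Mx proteins are dynamin-like GTPases that trap viral ribonucleoproteins, viperin makes a chain-terminating CTP analogue, IFITM3 hinders fusion of viruses in endosomes and tetherin holds budding virions at the surface. The Mx1 allele of C57BL/6 mice carries a deletion and gives no functional protein, and the annotation types Mx2 of this strain as a polymorphic pseudogene, so the values for both are transcript levels.

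Promoter windows from RefSeq (GRCm38.p6, 250 bases before to 50 after the start) were found for 8 of the 10 genes, all but Mx1 and Mx2. An ISRE core, searched on both strands as the word GAAA, any 2 bases and GAAA again, was present in the windows of Rsad2, Bst2 and Ifitm3, against 3.44% of 32851 windows of the same length. These letters were not in the windows of Cmpk2, Ifi44, Ifi35, Samd9l and Xaf1. The stretches that hold the matches are shown because the 3 genes moved by very different amounts below. Each is written 5′ to 3′ on the gene's own strand with the ISRE letters in capitals. The stretches of Rsad2 (chr12:26456503-26456622, minus strand) and Bst2 (chr8:71537543-71537662, minus strand) lie upstream of the RefSeq start. That of Ifitm3 (chr7:141010715-141010744, minus strand) is the first 30 bases from the RefSeq start. Positions of the matches are counted from RefSeq starts. The gene coordinates given below come from GENCODE, whose starts differ for some genes, among them Bst2 (71537456) and Ifitm3 (141010770, further upstream).

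Rsad2: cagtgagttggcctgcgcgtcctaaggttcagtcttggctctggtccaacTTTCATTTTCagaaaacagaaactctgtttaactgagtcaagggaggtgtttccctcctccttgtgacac
Bst2: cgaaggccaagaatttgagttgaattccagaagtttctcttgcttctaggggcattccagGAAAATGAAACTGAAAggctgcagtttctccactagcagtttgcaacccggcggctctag
Ifitm3: agGAAAAGGAAActtctgaGAAACCGAAAc

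In Rsad2 the match lay on the opposite strand and began 120 bases before the start. Bst2 held 2 overlapping matches, the first beginning 130 bases before the start. Ifitm3 held 2 separate matches after the start. A GAS element, searched as TTCNNNGAA (8.3% of windows), was in Bst2, where it overlapped the first ISRE match, in Ifitm3, where it overlapped the second, and in Ifi35. A κB site, searched on both strands as GGGA, any 2 bases and TTCC (1.47% of windows), was in Ifitm3 alone among the 8.

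The libraries held 17349682 to 34434615 expected counts. In CPM (counts scaled to library size), Gstm1 fell from 304 ± 104 in unstimulated control KD to 30.2 ± 1.66 in unstimulated GSTM1 KD astrocytes (SD, n = 2). With TNF-α the values were 299.6 ± 128 and 23.8 ± 0.755 CPM, so the knockdown was seen in both states (edgeR, adjusted p = 0.0132 and 0.0098). The 10 astrocyte markers were present in all groups, with a summed level of 1772 to 4129 TPM (a share of all transcripts, scaled by transcript length) in control KD and 3913 to 6236 TPM in GSTM1 KD libraries. The 14 microglia and macrophage markers summed to between 53.7 and 70.8 TPM in all 8 libraries, and none of the 6 that were tested passed in either comparison of the knockdowns. Of the 10 astrocyte markers, 7 at the basal level and 6 with TNF-α had estimates above 0, against 49.7% and 49% of all genes. S100b alone passed, being lower (-1.44 and -1.71 log2 units). Gfap had the largest mean of the markers, at 1456 ± 1060 TPM in basal control KD and 3259 ± 1309 TPM in basal GSTM1 KD. Aqp4 was 384.8 ± 219.5 and 379.8 ± 57.8 TPM in these groups, and Slc1a3 346.5 ± 93.6 and 342 ± 17.2 TPM. Aldh1l1 was 104.6 ± 71.1 and 228.6 ± 35.6 TPM, Aldoc 48.9 ± 39.4 and 109.3 ± 22.5, and Glul 275.8 ± 92.9 and 496.2 ± 21.6. The means of Slc1a2 (34.1 and 52.8 TPM) and Gja1 (150.2 and 202) were also higher in basal GSTM1 KD. Sox9 had a lower mean there, at 148.6 ± 45.5 and 109.6 ± 1.98 TPM. For other cells after TNF-α, against 8.92% of all genes lower and 7.26% higher, of the oligodendrocyte lineage markers 2 of 7 tested were lower (Olig1 and Olig2), of the fibroblast markers 2 of 6 lower and 1 higher, and of the endothelial and mural list (Pdgfrb) and of the ependymal list 1 of 5 higher in each. Of the same lists at the basal level, 1 of 7 oligodendrocyte lineage and 1 of 6 fibroblast markers were lower, against 5.62% of all genes, and 1 of 6 fibroblast and 1 of 5 ependymal markers higher, against 4.6%. All 5 ependymal markers tested had estimates above 0 in both states, with a highest log2 fold change of 3.08 (basal) and 3.29 (TNF-α). The medians, basal and with TNF-α, were 0.79 and 0.79 for this list and 0.46 and 0.81 for the endothelial and mural list. They were -0.40 and -0.44 for the oligodendrocyte lineage and -0.47 and -0.54 for the fibroblast markers. The summed oligodendrocyte lineage markers were 482 to 545 TPM in stimulated control KD and 399 to 409 TPM in stimulated GSTM1 KD, and the part of these shifts in the results below was not tested. In these bulk samples fewer cells of a type and less RNA per cell cannot be told apart. The study calls the 2 libraries of a group biological replicates without saying what separated them, and they differed beyond sampling noise.

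At the basal level the 10 genes covered a wide range of abundance, and the order of the means was the same in both kinds of astrocyte. Ifitm3 was highest, at 354 ± 67.8 TPM in control KD and 482 ± 48.4 TPM in GSTM1 KD (SD, n = 2), followed by Bst2 at 172 ± 1.27 and 163 ± 13.2 TPM. Xaf1, Ifi35, Samd9l, Cmpk2 and Ifi44 lay between 6.92 and 25.0 TPM on average. In control KD, the neighbours Xaf1 and Ifi35, Samd9l and Cmpk2, and Cmpk2 and Ifi44 overlapped between libraries, while in GSTM1 KD all neighbours in the order were apart. Rsad2, Mx2 and Mx1 were the lowest 3 in both.

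After TNF-α stimulation the order changed. Rsad2 moved from rank 8 to rank 4 in control KD, at 54.1 ± 9.99 TPM, and to rank 3 in GSTM1 KD, at 279.9 ± 154 TPM. In GSTM1 KD its libraries overlapped with those of Bst2 above (307 ± 87.7 TPM) and Cmpk2 below (202 ± 100.4 TPM). Ifitm3 was the most abundant and Mx1 had the lowest mean in every group. The plot of levels by library shows that Bst2 and Ifitm3 started high and moved little, whereas the Mx genes, Rsad2 and Cmpk2 started low and moved over an order of magnitude or more in GSTM1 KD astrocytes.

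**Figure D1:**
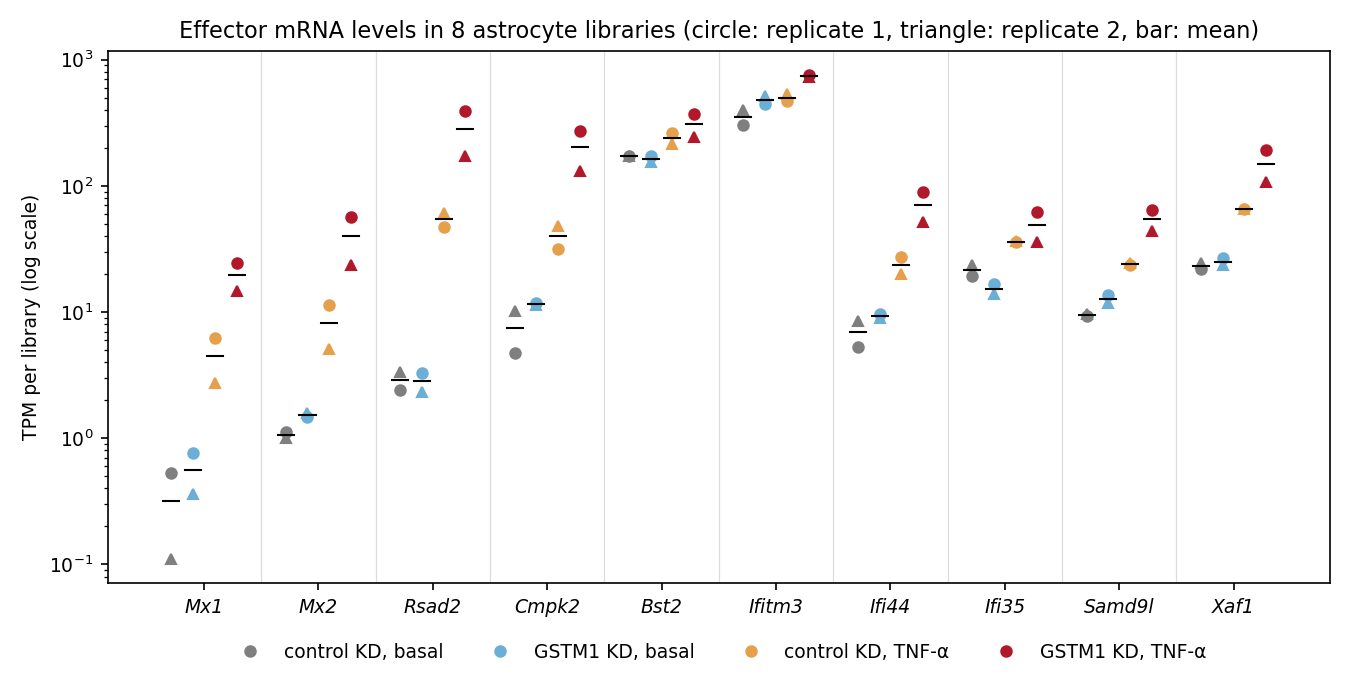
Level of each of the 10 effectors in each of the 8 libraries, in TPM on a log axis, with circles for replicate 1, triangles for replicate 2, a bar for the mean of 2 and colours for the 4 groups. Rsad2 rises from 2.34 to 3.35 TPM in the 4 basal libraries to 171 and 389 TPM in the stimulated GSTM1 KD libraries, while Ifitm3 stays between 306 and 755 TPM throughout.

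At the basal level, with the filter on low counts and no replicate block, none of the 9 genes that were tested passed between GSTM1 KD and control KD astrocytes. Mx1 was too low to be tested, with 2 to 14 counts per library. The edgeR quasi-likelihood test with Benjamini-Hochberg adjustment called 0 of 9, against 10.2% of all 14899 genes tested, and DESeq2 also called 0, against 18.7%. Without the filter on low counts edgeR called Cmpk2 higher (adjusted p = 0.0468), against 7.25%. With the replicate number as a block, Cmpk2 and Ifitm3 were called higher, against 15.7% of all genes. The labels do not say what the replicate numbers mark. At an unadjusted p under 0.05, edgeR had 3 of the 9, a share near the 31.6% of all genes, namely Ifitm3 (log2 fold change 0.37, SE 0.15), Samd9l (0.32, SE 0.12) and Ifi35 (-0.54, SE 0.19). The median log2 fold change over the 9 was 0.28, against -0.002 over all genes.

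After TNF-α stimulation, 7 of the 10 genes were higher in GSTM1 KD than in control KD astrocytes. They were Mx1, Mx2, Rsad2, Cmpk2, Ifi44, Samd9l and Ifitm3, and the background in this direction was 7.26% of 14593 genes tested (edgeR, 4 libraries). The first 4 differed most, by 2.07 to 2.31 log2 units, and Ifitm3 least, by 0.51. Xaf1, Bst2 and Ifi35 did not pass. The median log2 fold change was 1.35 over the 10, against -0.01 over all genes, and all 10 estimates were above 0, as were 49% of all genes. In 8 of the 10, both GSTM1 KD libraries lay above both control KD libraries in CPM, a pattern shared by 34.7% of all genes. The study itself named Rsad2, Cmpk2, Mx1, Ifi44 and Samd9l from these same libraries, so their direction is not independent evidence.

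The calls depended on single libraries. GSTM1 KD replicate 1 after TNF-α was higher than replicate 2 for all 10 genes in TPM. Without it, edgeR called 0 of the 10 and 0% of all 14822 genes in either direction, so the loss was not particular to these genes, and the estimates for the 7 stayed between 0.49 for Ifitm3 and 1.63 for Cmpk2 on the log2 scale. Their adjusted p was then 0.0645 for Rsad2, 0.0707 for Cmpk2, 0.0752 for Ifi44, 0.0892 for Samd9l, 0.0955 for Mx2, 0.0961 for Mx1 and 0.198 for Ifitm3 (edgeR). The estimates for Bst2 and Ifi35 fell to -0.0096 and -0.12. Without GSTM1 KD replicate 2 the count was 7, against 0.413% of all genes, with Xaf1 called (adjusted p = 0.0486, edgeR) and Ifitm3 not (0.22). It was 7 and 8 without control KD replicate 1 and replicate 2, against 7.6% and 16.7%.

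**Figure D2:**
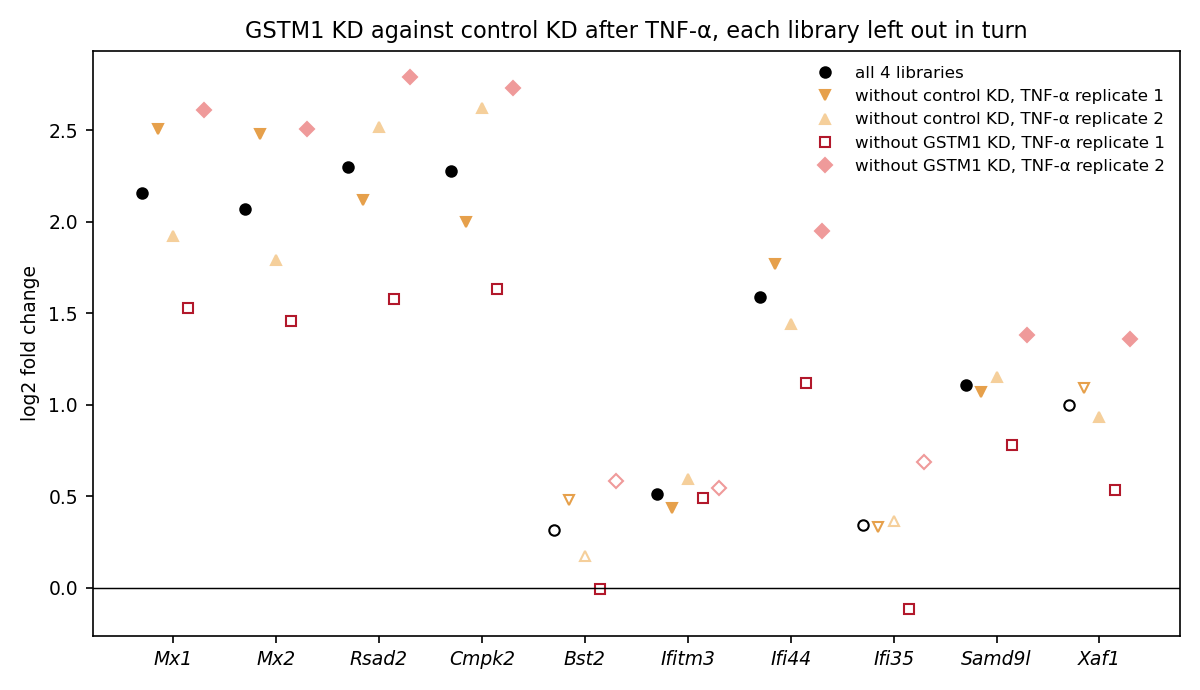
Log2 fold change of GSTM1 KD against control KD after TNF-α for each effector, with all 4 libraries (black) and with each library left out (colours). Filled symbols have an adjusted p under 0.05 (edgeR), and the open squares show that no gene is called without GSTM1 KD replicate 1, where Rsad2 falls from 2.31 to 1.58.

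TNF-α raised most of the effectors in both kinds of astrocyte. In control KD, 7 of 10 rose, against 2.1% of 15332 genes in this direction (edgeR on all 8 libraries), and the median log2 fold change was 1.81 against -0.02 over all genes. In GSTM1 KD, 8 of 10 rose, against 2.35%, with a median of 2.99 against -0.01. Mx1, Mx2, Rsad2, Cmpk2, Ifi44, Samd9l and Xaf1 rose in both, and Ifi35 passed in GSTM1 KD. Bst2 and Ifitm3 passed in neither with edgeR. DESeq2 called 8 of 10 in control KD, Ifitm3 among them (adjusted p = 0.042), against 3.63% of all genes, and 10 of 10 in GSTM1 KD, with Bst2 at 0.000716 and Ifitm3 at 0.00246, against 3.42%.

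The count in control KD was sensitive to single libraries. It was 1 without control KD basal replicate 1 and 1 without replicate 2, against 1.26% and 1.04% of all genes, and 4 without either GSTM1 KD basal library, against 1.28%. Without control KD replicate 1 and replicate 2 after TNF-α it was 2 and 3, against 1.81% and 1.05%, and it stayed at 7 without either stimulated GSTM1 KD library, against 1.55% and 1.57%. With the 4 control KD libraries fitted alone it was 3, against 0.473%. In GSTM1 KD the count fell to 4 and 2 without basal GSTM1 KD replicate 1 and replicate 2, against 0.508% and 0.468%, and was 7 to 9 without any other library, against 1.04% to 2.41%.

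**Figure D3:**
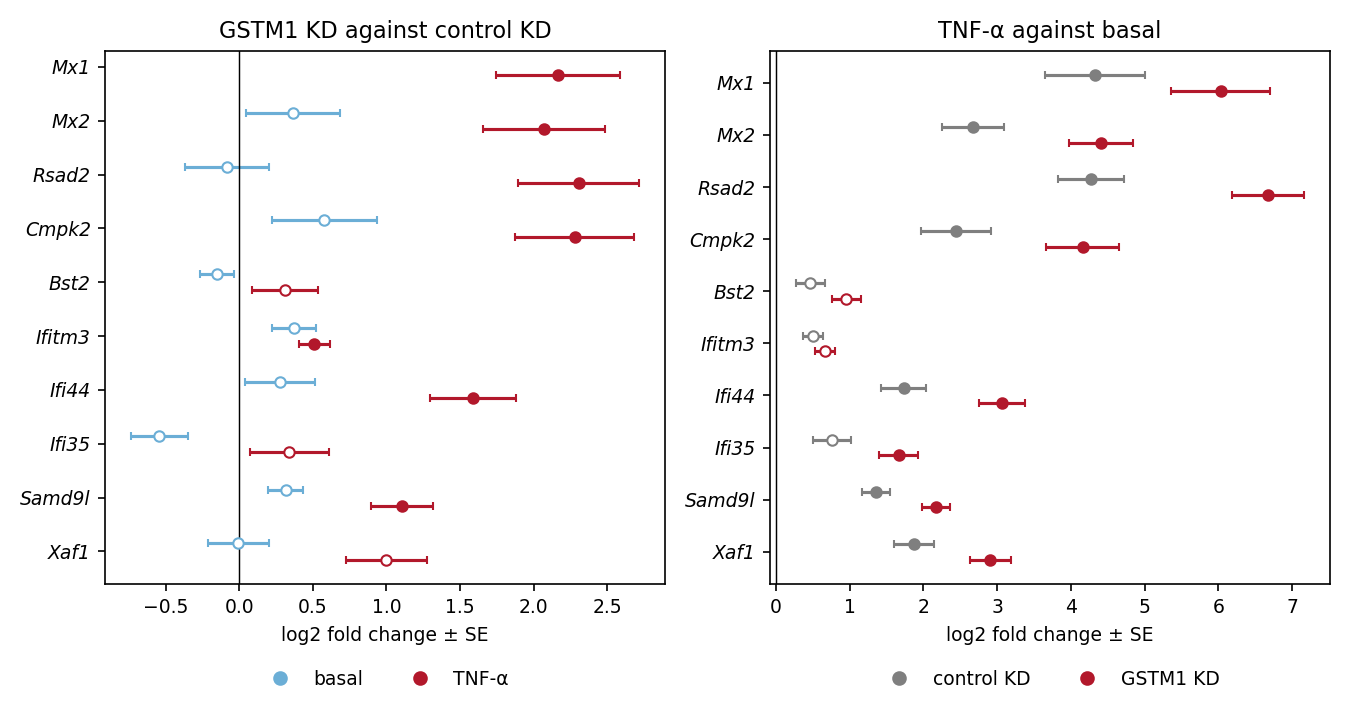
Log2 fold changes with SE from edgeR, for GSTM1 KD against control KD in unstimulated and stimulated cells (left) and for TNF-α against basal in each kind of astrocyte (right). Filled points have an adjusted p under 0.05. On the left the 7 filled points all belong to TNF-α, and on the right the GSTM1 KD estimate lies above the control KD estimate for all 10 genes, from 0.66 against 0.50 for Ifitm3 to 6.67 against 4.27 for Rsad2.

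The Mx GTPases had the lowest levels and some of the steepest changes. Mx1 (ENSMUSG00000000386.15, chromosome 16, 97447035 to 97462907, minus strand, GRCm38) had 0.53 and 0.11 TPM in the basal control KD libraries, 0.76 and 0.36 in basal GSTM1 KD, 6.22 and 2.74 in stimulated control KD and 24.5 and 14.6 in stimulated GSTM1 KD (replicates 1 and 2). The stimulated groups did not overlap with the basal groups or with each other. After TNF-α, Mx1 was 2.16 log2 units higher in GSTM1 KD (SE 0.42, adjusted p = 0.0293, edgeR). It rose with TNF-α by 4.33 log2 units (SE 0.68) in control KD and 6.03 (SE 0.67) in GSTM1 KD. The basal levels behind these values rest on 2 to 14 counts per library. Leaving out 1 library gave 3.96 to 5.03 in control KD and 5.33 to 7.85 in GSTM1 KD.

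Mx2 (ENSMUSG00000023341.15, chromosome 16, 97535308 to 97560900, plus strand) had 1.12 and 1.01 TPM in basal control KD, 1.46 and 1.59 in basal GSTM1 KD, 11.3 and 5.10 in stimulated control KD and 56.2 and 23.6 in stimulated GSTM1 KD. Its groups were apart from each other after stimulation, and the log2 fold change between them was 2.07 (SE 0.41, adjusted p = 0.0313, edgeR). The rise with TNF-α was 6.38-fold in control KD and 21.3-fold in GSTM1 KD astrocytes. In log2 units the latter was 4.41, and 3.78 to 4.85 with 1 library left out.

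Reads from the Mx genes cannot always be told apart, and their counts are uncertain for that reason. The longest identical stretch is 140 bases of coding sequence across exons 5 and 6 of Mx1 (chr16:97455489-97455617 and chr16:97455218-97455228, minus strand) and exons 6 and 7 of Mx2 (chr16:97546351-97546479 and chr16:97546747-97546757, plus strand), longer than a 31-base word and shown because a read inside it fits either gene.

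Mx1 and Mx2: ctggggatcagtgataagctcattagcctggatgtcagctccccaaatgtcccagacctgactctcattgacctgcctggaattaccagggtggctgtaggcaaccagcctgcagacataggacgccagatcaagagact

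Of the 4001 words of 31 bases in Mx1 transcripts, 289 also occurred in Mx2. In 3 libraries the expected counts of both genes were fractions, among them 714.38 and 1098.62 in stimulated GSTM1 KD replicate 1, and their sums were whole numbers in all 8 libraries within 0.005. With both genes added up as 1, an alternative chosen after seeing the data, the log2 fold change after TNF-α was 2.11 (adjusted p = 0.0291, edgeR), still past the threshold.

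Viperin and its neighbour Cmpk2 were the genes with the largest log2 differences between the knockdowns after TNF-α. They lie head to head on chromosome 12 with 12752 bases between their starts: Rsad2 (ENSMUSG00000020641.16) from 26442746 to 26456452 on the minus strand and Cmpk2 (ENSMUSG00000020638.8) from 26469204 to 26479837 on the plus strand. Rsad2 had 2.39 and 3.35 TPM in basal control KD, 3.29 and 2.34 in basal GSTM1 KD, 47.1 and 61.2 in stimulated control KD and 389 and 171 in stimulated GSTM1 KD. The basal groups overlapped, and both stimulated GSTM1 KD libraries stood well above the other 6. The difference after TNF-α was 4.94-fold (log2 2.31, SE 0.41, adjusted p = 0.0252, edgeR). Rsad2 rose 19.3-fold in control KD and 102-fold in GSTM1 KD (adjusted p = 0.00514 and 0.00118, edgeR). In log2 units the latter was 6.67. It was 5.93 without stimulated GSTM1 KD replicate 1 and 7.16 without replicate 2.

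Cmpk2, a mitochondrial nucleotide kinase whose product can supply the substrate of viperin, had 4.71 and 10.3 TPM in basal control KD, 11.8 and 11.4 in basal GSTM1 KD, 31.6 and 47.7 in stimulated control KD and 273 and 131 in stimulated GSTM1 KD. Its basal control KD libraries differed from each other more than the 2 GSTM1 KD libraries did. After TNF-α the difference was 4.85-fold (log2 2.28, SE 0.40, adjusted p = 0.025, edgeR), close to that of Rsad2. The rise was smaller than for Rsad2, at 5.44-fold in control KD and 17.9-fold in GSTM1 KD, from a higher basal level. In log2 units these were 2.44 and 4.16. With 1 library left out they ran from 1.98 to 3.1 and from 3.51 to 4.61.

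Tetherin and IFITM3, which act at membranes, were the most abundant before stimulation and had the smallest log2 responses to TNF-α in both kinds of astrocyte. Bst2 (ENSMUSG00000046718.8, chromosome 8, 71534255 to 71537456, minus strand) had 173 and 172 TPM in basal control KD, 173 and 154 in basal GSTM1 KD, 262 and 213 in stimulated control KD and 369 and 245 in stimulated GSTM1 KD. GSTM1 KD and control KD overlapped in TPM in both states. The log2 fold change between them after TNF-α was 0.31 (SE 0.22, adjusted p = 0.357, edgeR). TNF-α against basal gave 0.47 in control KD and 0.95 in GSTM1 KD (adjusted p = 0.394 and 0.0606, edgeR), with the stimulated libraries above the basal ones in both cases.

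Ifitm3 (ENSMUSG00000025492.6, chromosome 7, 141009586 to 141010770, minus strand) had 306 and 402 TPM in basal control KD, 448 and 516 in basal GSTM1 KD, 471 and 529 in stimulated control KD and 755 and 724 in stimulated GSTM1 KD. GSTM1 KD lay above control KD in both states without overlap. After TNF-α the difference was 1.42-fold (log2 0.51, SE 0.10, adjusted p = 0.0327, edgeR), and at the basal level it was 1.29-fold (log2 0.37, SE 0.15, adjusted p = 0.156). Its replicates after stimulation were the closest of the 10 in GSTM1 KD, so that leaving out either library there kept the estimate between 0.49 and 0.54, although neither then passed. Ifitm2, a neighbouring family member that shares 39 of the 648 words of 31 bases in the Ifitm3 transcript, had 252 ± 28.9 TPM in stimulated control KD and 289 ± 1.81 TPM in stimulated GSTM1 KD (log2 0.15, adjusted p = 0.379, edgeR).

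The remaining 4 genes code for less well understood interferon-induced proteins and regulators of growth and cell death. Ifi44 (ENSMUSG00000028037.13, chromosome 3, 151730922 to 151749960, minus strand) had 5.31 and 8.54 TPM in basal control KD, 9.64 and 8.89 in basal GSTM1 KD, 27.1 and 20.02 in stimulated control KD and 88.6 and 51.8 in stimulated GSTM1 KD. The stimulated groups were apart, with a log2 fold change of 1.59 (SE 0.29, adjusted p = 0.0268, edgeR). TNF-α raised Ifi44 by 3.32-fold in control KD and 8.37-fold in GSTM1 KD. Its paralog Ifi44l was too low to be tested between the knockdowns, at 0.15 TPM or less on average in each group, and shared no word of 31 bases with it.

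Ifi35 (ENSMUSG00000010358.13, chromosome 11, 101448407 to 101458698, plus strand), whose product binds the interferon-induced protein NMI, had 19.2 and 23.5 TPM in basal control KD, 16.6 and 14.0 in basal GSTM1 KD, 35.8 and 36.4 in stimulated control KD and 61.4 and 35.7 in stimulated GSTM1 KD. At the basal level it was lower in both GSTM1 KD libraries, but after TNF-α the second GSTM1 KD library lay below both control KD libraries. The log2 fold change was 0.34 (SE 0.27, adjusted p = 0.406, edgeR). Against basal, TNF-α gave 0.76 in control KD (adjusted p = 0.245) and a 3.18-fold rise in GSTM1 KD (adjusted p = 0.0219, edgeR). An antisense gene, Gm11626, overlaps exons of Ifi35, and strand use in counting was not given in the sources used here, so reads of the pair may be mixed. Its partner Nmi was 28.8 ± 3.49 TPM in stimulated control KD and 37.8 ± 8.06 TPM in stimulated GSTM1 KD, a log2 difference of 0.32 that did not pass (adjusted p = 0.32, edgeR).

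Samd9l (ENSMUSG00000047735.14, chromosome 6, 3372257 to 3399572, minus strand), which restrains cell growth and translation, had 9.34 and 9.71 TPM in basal control KD, 13.6 and 11.8 in basal GSTM1 KD, 23.6 and 24.4 in stimulated control KD and 64.7 and 43.5 in stimulated GSTM1 KD. The 4 groups did not overlap. After TNF-α the difference was 2.15-fold (log2 1.11, SE 0.21, adjusted p = 0.0276, edgeR), and the rise was 2.56-fold in control KD and 4.50-fold in GSTM1 KD.

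Xaf1 (ENSMUSG00000040483.15, chromosome 11, 72301629 to 72313733, plus strand), an antagonist of the caspase inhibitor XIAP, had 22.1 and 24.4 TPM in basal control KD, 26.7 and 23.4 in basal GSTM1 KD, 65.8 and 65.7 in stimulated control KD and 193 and 107 in stimulated GSTM1 KD. The stimulated groups were apart, but the 2.00-fold difference did not pass (log2 1.00, SE 0.28, adjusted p = 0.0628, edgeR). DESeq2 on the same libraries gave an adjusted p of 0.00297. TNF-α raised Xaf1 by 3.68-fold in control KD and 7.49-fold in GSTM1 KD (adjusted p = 0.0149 and 0.00287, edgeR).

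The difference between the responses, which asks whether TNF-α raised a gene more in GSTM1 KD, was above 0 for all 10 genes, as for 54.7% of all 15332 genes, but none passed the correction in edgeR with the filter on low counts. The edgeR interaction term called 0 of 10 and 0% of all genes. Without the filter on low counts it called 6 (Mx2, Rsad2, Cmpk2, Ifi44, Samd9l and Xaf1), against 0.389% of all genes. At an unadjusted p under 0.05 it had 7 of the 10, against 1.92% of all genes. The 3 without were Mx1 (log2 difference 1.71, SE 1.06), Bst2 (0.49, SE 0.28) and Ifitm3 (0.16, SE 0.19). Rsad2 had the largest, at 2.40 (SE 0.59, unadjusted p = 0.00439, adjusted p = 1, edgeR), followed by Mx2 at 1.74 (SE 0.59) and Cmpk2 at 1.72 (SE 0.64). Leaving out 1 library gave 0.988 to 3.52 for Mx1, 1.66 to 2.88 for Rsad2, 1.1 to 2.16 for Mx2 and 1.06 to 2.18 for Cmpk2. The median over the 10 was 1.18, against 0.02 over all genes, and fell to 0.70 without GSTM1 KD replicate 1 after TNF-α. DESeq2 called 1 of 10, Rsad2 (2.40, adjusted p = 0.00375), against 0.143% of all genes in this direction.

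Genes of interferon signalling did not move as evenly as the effectors. Of 30 genes of a ligand, receptors, kinases, transcription factors, sensors of RNA and DNA and feedback inhibitors, GSTM1 KD astrocytes stimulated with TNF-α had 10 higher and 4 lower than control KD, against 7.26% and 8.92% of all genes, with a median log2 fold change of 0.16. The transcription factor Irf9 (1.07, SE 0.16) and the RNA sensor Ddx58 (1.35, SE 0.19) were higher. The receptor chain Ifnar1 (-0.49, SE 0.09), the kinase Jak2 (-0.44, SE 0.09) and Irf8 (-2.35, SE 0.47), a factor of myeloid cells that was 0.705 ± 0.205 TPM or less on average in each group, were lower. These 5 passed in edgeR, with adjusted p between 0.017 and 0.0385. These calls too were lost without GSTM1 KD replicate 1 after TNF-α, when no gene was called. At the basal level 1 of 28 tested differed, against 10.2% of all genes, namely Ifngr2, a chain of the interferon-γ receptor, which was lower (-0.76, SE 0.13), a call lost without GSTM1 KD basal replicate 1, when 0% of all genes were called lower. TNF-α raised 10 of the 30 in control KD, raised 17 in GSTM1 KD and lowered none, against 2.1% and 2.35% of all genes higher, with Irf1 at 3.11 (SE 0.14) and 3.22 (SE 0.15), Irf5 at 2.83 and 3.79 and Ifngr2 at 1.34 and 1.73 on the log2 scale. Ifnb1, which codes for interferon-β, is 1 of the 30 and is named only because of its values. It had no count in the 4 basal libraries, 7 and 1 counts in stimulated control KD and 25 and 9 counts in stimulated GSTM1 KD. These counts are few, the lowest is under the floor of 3 counts, and a part of interferon-β in the results was not tested.

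A list of 68 other interferon-induced effectors was examined in the same way. After TNF-α, 61 of the 65 tested genes had estimates above 0, against 49% of all genes. In GSTM1 KD, 24 were higher and none lower, against 7.26% and 8.92% of all genes. The median was 1.03, against -0.01 over all genes. Ifit3b, which binds viral RNA complexes, was 2.04 higher (SE 0.29), Lgals3bp 0.90 (SE 0.11) and Ifi27 0.69 (SE 0.09), with adjusted p of 0.0168, 0.0124 and 0.0159 (edgeR). The 24 also fell to 0 without GSTM1 KD replicate 1 after TNF-α. At the basal level 1 of 57 was higher, Ifi27 (0.71), against 4.6% of all genes, and 4 were lower, against 5.62%, among them Ifit1 (-0.89), Ifi205 (-1.08) and Oasl1 (-1.92). The lower calls were also lost without GSTM1 KD basal replicate 1. TNF-α raised 31 of 65 in control KD and 55 in GSTM1 KD, against 2.1% and 2.35% of all genes, with Cxcl10, a chemokine for T cells, at 6.41 and 8.35 and Parp14 at 2.68 and 4.10 on the log2 scale. Among those with the smallest p were also Gbp5, a guanylate-binding protein, in control KD, at 6.45 (SE 0.48), and Ifit1 in GSTM1 KD, at 4.995 (SE 0.34, adjusted p = 0.00091, edgeR). The largest estimate of the list in GSTM1 KD was 8.91. With the same fit, no gene of either list passed for the difference of the responses. Of the 65 tested, 35 were at an unadjusted p under 0.05 for this difference (edgeR), against 1.92% of all genes. The median was 1.16, against 0.02 over all genes.

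**Figure D4:**
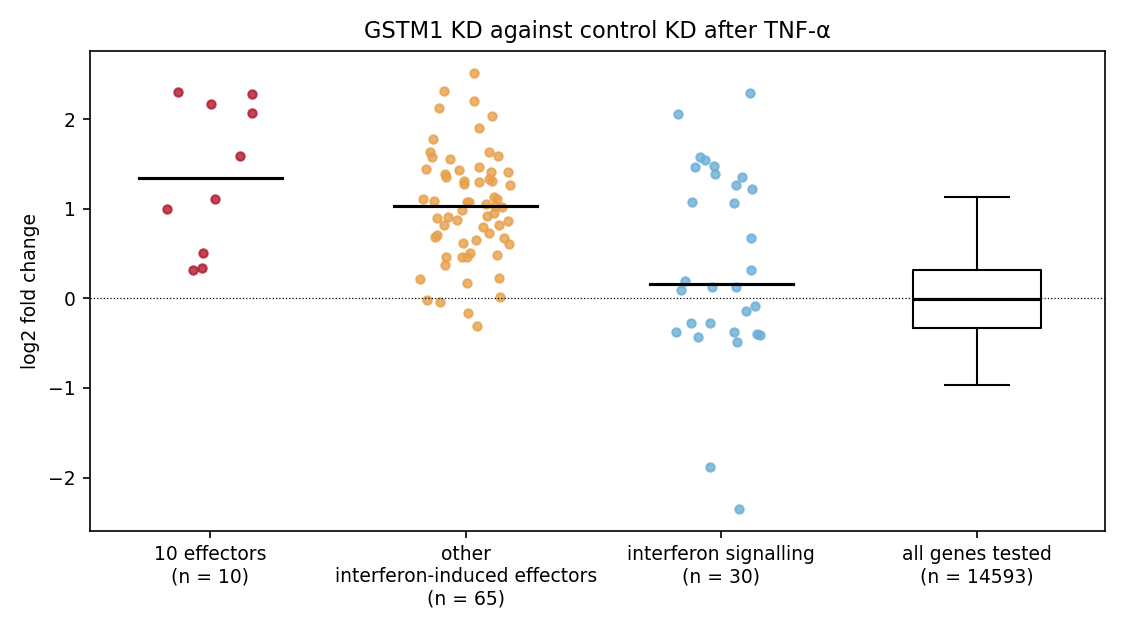
Log2 fold change of GSTM1 KD against control KD after TNF-α for the 10 effectors, 65 other interferon-induced effectors and 30 interferon signalling genes (points, with a bar at the median), beside the median, quartiles and 5th to 95th percentiles of all 14593 genes tested (box and whiskers). The medians are 1.35, 1.03, 0.16 and -0.01.

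Of 12 close paralogs of the 10, 9 were tested between the knockdowns. None passed in unstimulated or stimulated cells, against 10.2% and 16.2% of all genes in either direction, and 2 and 3 of the 9 were at an unadjusted p under 0.05, against 31.6% and 36.2%, with a median log2 fold change of 0.13 and 0.25. Beside Ifitm2 and Nmi, the values after TNF-α were 0.63 for Ifitm7, -0.12 for Ifitm10, 0.34 for Cmpk1 (a cytosolic nucleotide kinase) and -0.03, 0.25, 0.07 and 1.20 for the dynamins Dnm1, Dnm2, Dnm1l and Dnm3. Of the 10 tested for TNF-α against basal, none passed in control KD, against 2.63% of all genes, and Nmi alone rose in GSTM1 KD, against 2.65% (1.02, SE 0.19, adjusted p = 0.0394, edgeR). Ifitm1, which shares 35 of the 648 words of Ifitm3, had 0 to 9 counts per library.

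Across the 8 libraries the 10 effectors followed each other in log2 CPM. The pairwise Pearson r ran from 0.674 for Ifitm3 and Ifi35 to 0.995 for Mx1 and Xaf1, over libraries that share the effects of TNF-α and of the knockdown and that fall into groups. Outside the 10, the genes most like Rsad2 among 15332 were Rtp4 (r = 0.998), Parp9, Olfr56, Parp14 and Dtx3l (r = 0.996 each). Olfr56 shares exons with the interferon-induced gene Ifi47, Rtp4 with Gm45338 and Parp14 with Gm49730. Parp9 and Dtx3l overlap on opposite strands, as do Oasl1, named below, and Gm13822. The counts of all these genes may hold reads of the partner. The genes most like Bst2 were Rbm43 (r = 0.98), Daxx (0.978), RP23-430B14.2 (0.969), Oasl1 (0.968) and Fam46a (0.968), none of which was among those most like Rsad2.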

How the data were processed

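Primary astrocytes from cortices of neonatal C57BL/6 mice were sequenced as paired-end reads from a strand-preserving library kit. The authors aligned reads with STAR 2.5.4b to GRCm38 and quantified genes with RSEM 1.3.0. The annotation release and the strand setting were not given in the sources used here. The deposited expected count per gene, an estimate that divides shared reads, was rounded and tested. The deposited TPM values were used for levels between genes, and the deposited FPKM values were not used. TPM of Mx1 also moves with its estimated effective length.

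CPM were computed with TMM factors. edgeR 4.0.16 (quasi-likelihood, filterByExpr) in R 4.3.3 compared the knockdowns on the 4 libraries of a state, and the TNF-α responses and their difference on all 8. Benjamini-Hochberg adjusted p under 0.05 was called, over all genes tested. The SE is the log2 fold change divided by the root of F. The fits were tested on simulated data. Alternatives were DESeq2 1.42.0, limma 3.58.1, other scalings, filters, effective lengths, a replicate block and leaving out each library. A count of 3 equals 0.0848 to 0.18 CPM, and this covers counting error only.

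Coordinates come from GENCODE M21 (GRCm38), which matched 52480 of 54146 gene identifiers. The text names all 10 members and Gstm1, tested close paralogs, from each interferon list and comparison up to 3 called genes per direction, ranked by p, and the 5 genes most correlated with Rsad2 and with Bst2. Ifnb1 and the cell type markers were named outside this rule. The members and lists were chosen with earlier results of these data known. 1 gene that this rule names is not reported here.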

Additional observations from a re-analysis of the deposited data

How the results depend on the processing

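With 2 libraries per group, leaving out 1 assumes that the lone sample varies like the other groups. The number of effectors called higher in GSTM1 KD then ranged from 0 to 2 at the basal level, where 0.00643% to 17.2% of all genes were called higher, and from 0 to 8 after TNF-α (0% to 16.7%), the number raised by TNF-α from 1 to 7 in control KD and from 2 to 9 in GSTM1 KD, and the number for the difference of the responses was 0 throughout. The medians ranged from 0.0765 to 0.257 at the basal level and from 0.699 to 1.53 for the difference of the responses. Estimates near 0 changed sign in these fits: at the basal level Rsad2 ranged from -0.349 to 0.162 and Xaf1 from -0.192 to 0.151, after TNF-α Bst2 from -0.0096 to 0.582 and Ifi35 from -0.118 to 0.688, and the response difference of Ifitm3 from -0.031 to 0.324. Basal Xaf1 was also above 0 with library size only (0.0195), with effective lengths as offsets (0.0505) and with limma on log2(TPM + 0.5) (0.104).

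Without a filter on low counts, edgeR called 1 effector higher at the basal level, Cmpk2 (7.25% of all genes higher), and 6 for the difference of the responses (0.389%). DESeq2 called 1 for that difference. With the 4 libraries of control KD alone, 3 rose with TNF-α. With limma on TPM the median response in control KD was 1.6. The causes were not tested. After TNF-α, the number higher in GSTM1 KD was between 6 and 8 under all alternatives other than leaving out a library, while 5.16% to 14.1% of all genes were called higher. The replicate numbers are in the labels, but 2 numbers are too few to establish a pairing. Deviations of libraries with the same number correlated at 0.22 to 0.687, and with the replicate number as a block 2 effectors, Cmpk2 and Ifitm3, were called higher at the basal level, 8 after TNF-α, 8 and 10 for the responses in control KD and GSTM1 KD, and 0 for their difference, while 15.7%, 14.1%, 4.25%, 4% and 0% of all genes were called higher. Depth limits Mx1 most, at 2 to 14 counts in the basal libraries.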
